A study of Homo sapiens with 6 samples.

Results

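PARP9, PARP10, PARP12, PARP14, DTX3L, SAMD9 and SAMD9L are 7 interferon-inducible genes that were chosen by symbol from a table of 27469 genes measured in HMC3 cells. HMC3 is an immortalised human line labelled as microglia. The IL-33 group had 3 libraries of HMC3 cells given interleukin-33 (IL-33) for 24 h, and the Control group had 3 libraries of HMC3 cells that carry the treatment label Control. IL-33, an alarmin related to interleukin-1, signals through the receptor ST2. No dose, vehicle or separate culture is named in the labels, so the spread between libraries of a group may be technical. RNA was read with a 3′ tag kit, in which a count does not grow with the length of the transcript.

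All 7 genes had been picked with results of the IL-33 and Control libraries in view, SAMD9 and PARP14 among them for their values in this same contrast. Their fold changes are therefore given as a description, with a standard error (SE) and with no p-value.

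The label of the line was set against its markers. Of 15 microglia and macrophage markers, 10 had 0 counts in all 6 libraries, ITGAM, P2RY12, TMEM119, CX3CR1, SPI1 and TYROBP among them. The markers summed to 3.89 to 6.84 CPM (counts scaled to a library of 1e6) in IL-33 libraries and to 3.57 to 7.96 CPM in Control libraries. Fibroblast and pericyte markers summed to 7440 to 7800 CPM with IL-33 and 7010 to 8090 CPM in Control, led by FN1, VIM and TAGLN, while COL3A1, ACTA2 and LUM were at 0. Of 10 astrocyte, neuron and epithelial markers, 1 was at 0 (AQP4), and their sum lay between 627 and 672 CPM with IL-33 and between 619 and 767 CPM in Control, most of it from KRT18. Library totals ran from 5739947 to 10217529 counts. Control 3 had the lowest total and stood apart from the other libraries, at 55.0 on a first principal component on which the other 5 lay between -18.0 and 0.86. IL-33 2 had the highest total and lay at -7.24.

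Type I interferon acts through a receptor, the kinases JAK1 and TYK2 and the transcription factor complex ISGF3, which binds interferon-stimulated response elements in promoters. PARP9, PARP10, PARP12 and PARP14 belong to the PARP family, whose active members transfer ADP-ribose from NAD to proteins. PARP14 and PARP9 also carry macrodomains, which bind ADP-ribose, and PARP9 works in a complex with the ubiquitin ligase DTX3L. SAMD9 and SAMD9L are neighbouring paralogues that restrict poxviruses and whose gain-of-function variants cause bone marrow failure syndromes.

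Promoters of 6 of the 7 genes are shown first, because the letters of an interferon-stimulated response element are a feature that the counts did not use. RefSeq promoter windows (GRCh38.p14, 250 bases before to 50 after a start) were matched for 6 of the 7 genes, in 7 windows, since PARP9 has an extra start. No window of PARP10 was available, so its promoter was not searched. The element was searched on both strands as GAAA, then any 2 bases, then GAAA. It was found in 5 of the 7 windows (71.4%), against 1255 of 35116 promoter windows of all genes (3.57%). The match of PARP9 and that of DTX3L are the same bases, counted in both windows. The genes were chosen as interferon-inducible, so their share is a description and no independent finding. Each line gives a stretch on the strand of the gene, with the motif in capitals and 30 bases on either side; for SAMD9L, which had no full match, the capitals mark the sole place within 1 mismatch of the motif.
DTX3L, chr3:122564302-122564371, plus strand: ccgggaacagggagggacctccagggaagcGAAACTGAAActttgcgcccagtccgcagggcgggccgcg
PARP14, chr3:122680780-122680849, plus strand: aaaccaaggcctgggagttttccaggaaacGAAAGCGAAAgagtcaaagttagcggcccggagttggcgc
SAMD9, chr7:93118076-93118145, minus strand: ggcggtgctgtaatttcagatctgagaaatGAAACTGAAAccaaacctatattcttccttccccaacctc
SAMD9L, chr7:93148394-93148463, minus strand: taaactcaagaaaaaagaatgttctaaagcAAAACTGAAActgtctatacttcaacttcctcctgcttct
PARP12, chr7:140062922-140062991, minus strand: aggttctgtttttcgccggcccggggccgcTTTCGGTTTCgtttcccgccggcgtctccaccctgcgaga

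The stretch of DTX3L is at the same time a promoter of PARP9, which is read from the opposite strand. Its motif began 6 bases before the start of DTX3L and, read on the PARP9 strand, 41 bases before a start of PARP9. The other PARP9 window held no full match. The motif began 29 bases before the start of PARP14, 136 before that of SAMD9 and, as the reverse complement, 10 before that of PARP12. In SAMD9L the place with 1 mismatch began 48 bases before the start, but such places were common, with at least 1 in 33% of all windows. A gamma-activated site, TTCNNNGAA, which reads the same on both strands, was found in 1 of the 7 windows, that of PARP14, where it began 40 bases before the start and did not overlap the other motif. It was present in 7.66% of all windows. Of 53 windows of 37 other interferon-stimulated genes, 31 (58.5%) held the response element and 14 (26.4%) TTCNNNGAA. These matches are letters in a window and were not tested as binding sites.

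The comparison of IL-33 with Control asked which transcripts differed after 24 h of the cytokine. Of the 7 genes, 7 had a higher mean level with IL-33, with log2 fold changes from 0.10 for DTX3L to 1.26 for SAMD9L and a median of 0.42, where the median over the 12125 genes tested was -0.01 and 48.9% of them were above 0. None of the 7 passed edgeR's quasi-likelihood test at a Benjamini-Hochberg adjusted p of 0.05, and 0 of all genes tested did (0%). By edgeR, 295 genes had an unadjusted p under 0.05, and among them 176 (1.45% of the genes tested) were higher. DESeq2 called 1 gene, the antisense RNA KIRREL3-AS2, and limma-voom called 0. In 0 of the 7 genes did all IL-33 libraries lie above all Control libraries, which occurred in 4.54% of all genes. The 7 genes were alike in the library in which they peaked. In 7 of 7 the highest level was in IL-33 2, as in 15.1% of all genes tested. The 7 genes were picked with this contrast in view, which can favour a peak in an IL-33 library. Their count is therefore a description, and the share of all genes is no like baseline for it. The margin over the next highest library ran from 1.06 times for PARP14 and 1.08 times for PARP9 to 2.59 times for SAMD9L. For PARP14, PARP9, PARP10 and PARP12 the exact 95% Poisson intervals of those libraries overlapped, so their peak in IL-33 2 was not clear of counting error. The count of genes above 0 was 7 of 7 without Control 3 and 5 of 7 without IL-33 2. All 7 passed the filter on low counts; the least abundant, PARP10 and SAMD9L, had 10 or more counts in 5 and in 3 libraries, of both groups.

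**Figure D1:**
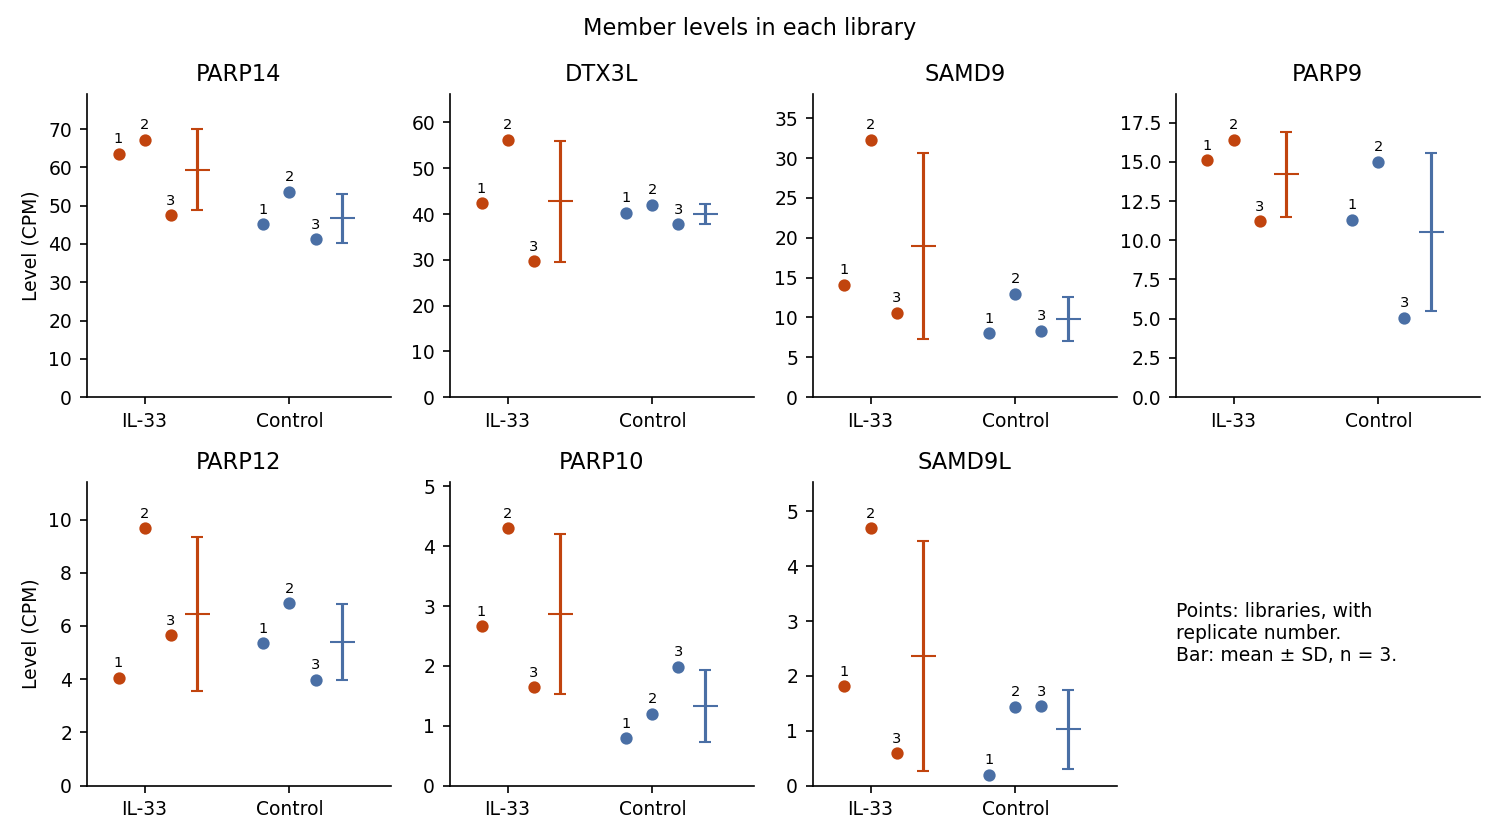
Level of each of the 7 genes (CPM, linear axes from 0) in IL-33 libraries (left, orange) and Control libraries (right, blue), where points are libraries with their replicate number and bars show the mean ± SD (n = 3 each). IL-33 2 is the highest point in every panel, at 67.2 CPM for PARP14 (63.6 CPM in IL-33 1) and 4.69 CPM for SAMD9L (1.81 CPM in IL-33 1), and the groups overlap in every panel.

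PARP14, the largest of the 4 PARPs here and a mono-ADP-ribosyltransferase (ENSG00000173193.14, chromosome 3, 122680618 to 122730840, plus strand, in GENCODE release 29 on GRCh38, as for the genes below), was the most abundant of the 7 genes. It measured 63.6, 67.2 and 47.5 CPM in IL-33 1, 2 and 3, against 45.2, 53.6 and 41.3 CPM in Control 1, 2 and 3. IL-33 1 and 2 were above all Control libraries and IL-33 3 lay within their range. The means were 59.4 ± 10.5 CPM with IL-33 and 46.7 ± 6.32 CPM in Control (SD, n = 3 each), a log2 fold change of 0.35 ± 0.16 (SE). With 2817 counts in all it was also the best measured, and its fold change stayed between 0.25 and 0.48 when any single library was left out.

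DTX3L (ENSG00000163840.9, chromosome 3, 122564238 to 122575203, plus strand), the ubiquitin ligase partner of PARP9, measured 42.4, 56.2 and 29.7 CPM in IL-33 1, 2 and 3, against 40.3, 42.0 and 37.8 CPM in Control 1, 2 and 3. The IL-33 libraries held both the highest and the lowest value, and the Control libraries lay close together between them. The means were 42.8 ± 13.2 CPM with IL-33 and 40.0 ± 2.08 CPM in Control, a log2 fold change of 0.10 ± 0.19 that turned to -0.15 without IL-33 2 and was 0.30 without IL-33 3 and 0.06 without Control 3.

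PARP9 (ENSG00000138496.16, chromosome 3, 122527924 to 122564577, minus strand), an interferon-inducible PARP with little transferase activity of its own, measured 15.1, 16.4 and 11.2 CPM in IL-33 1, 2 and 3, against 11.3, 15.0 and 5.07 CPM in Control 1, 2 and 3. Control 3 was low and Control 2 nearly as high as IL-33 1. The means were 14.2 ± 2.71 CPM with IL-33 and 10.5 ± 5.03 CPM in Control. The log2 fold change was 0.42 ± 0.32, with 0.12 without Control 3 and 0.76 without Control 2. PARP9 and DTX3L overlap by 340 bases at their 5′ ends, on opposite strands and far from the 3′ ends that the tags report.

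The balance of PARP9 and DTX3L was computed after their values had been seen. PARP9 made up 26.3%, 22.6% and 27.4% of the summed counts of the pair in IL-33 1, 2 and 3, against 21.9%, 26.4% and 11.8% in Control 1, 2 and 3. Control 3 alone was low, with an exact 95% binomial interval of 8.0% to 16.6% that did not reach those of the other 5 libraries, of which the lowest bound was 18.4%. Intervals of this kind cover counting error only, since PCR copies without molecular identifiers are not independent molecules.

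PARP12 (ENSG00000059378.12, chromosome 7, 140023744 to 140063721, minus strand), a mono-ADP-ribosyltransferase with zinc fingers, measured 4.05, 9.67 and 5.66 CPM in IL-33 1, 2 and 3, against 5.36, 6.85 and 3.98 CPM in Control 1, 2 and 3. It was the sole gene of the 7 in which IL-33 1 did not exceed all Control libraries, and IL-33 2 alone stood above them. The means were 6.46 ± 2.89 CPM with IL-33 and 5.40 ± 1.44 CPM in Control. The log2 fold change of 0.25 ± 0.39 turned to -0.17 without IL-33 2. It was 0.50 without IL-33 1, 0.46 without Control 2 and 0.09 without Control 3.

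PARP10 (ENSG00000178685.13, chromosome 8, 143977153 to 144012772, minus strand), a mono-ADP-ribosyltransferase, was measured by 112 counts in all, 25, 44 and 14 in IL-33 1, 2 and 3 against 8, 10 and 11 in Control 1, 2 and 3. As CPM these were 2.66, 4.30 and 1.65 CPM with IL-33 and 0.794, 1.20 and 1.99 CPM in Control. IL-33 3 lay within the range of the Control libraries, and the exact 95% Poisson interval of IL-33 2, from 3.12 to 5.77 CPM, overlapped that of Control 3, from 0.994 to 3.56 CPM. The log2 fold change was 1.16 ± 0.65, and ran from 0.74, without IL-33 2, to 1.53, without Control 3, with a library left out. GRINA lies on the opposite strand within PARP10, 12905 bases from its 3′ end, and had 129, 158 and 129 CPM with IL-33 and 134, 125 and 152 CPM in Control. The 2 genes are counted separately, but the strand setting of the counting is not stated, so how any tags within the 3358 shared bases were assigned cannot be told.

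SAMD9 (ENSG00000205413.7, chromosome 7, 93099513 to 93118023, minus strand), an antiviral factor, measured 14.1, 32.3 and 10.6 CPM in IL-33 1, 2 and 3, against 8.04, 13.0 and 8.32 CPM in Control 1, 2 and 3. IL-33 2 was 2.30 times the next highest library, while IL-33 3 lay within the range of the Control libraries. The means were 19.0 ± 11.7 CPM with IL-33 and 9.78 ± 2.77 CPM in Control, which gave 0.96 ± 0.38 as log2 fold change. It dropped to 0.33 when IL-33 2 was left out.

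SAMD9L (ENSG00000177409.11, chromosome 7, 93130055 to 93148369, minus strand), its paralogue 12031 bases away, was read by 17, 48 and 5 counts in IL-33 1, 2 and 3, against 2, 12 and 8 counts in Control 1, 2 and 3. These were 1.81, 4.69 and 0.589 CPM with IL-33 and 0.199, 1.44 and 1.45 CPM in Control. IL-33 2 was 2.59 times the next highest library, IL-33 1 came second, and IL-33 3 was lower than Controls 2 and 3. The log2 fold change of 1.26 ± 0.83 was 0.28 without IL-33 2 and 0.72 without Control 1. The paralogues share 2 exact sequences of 31 bases, which may overlap, among 6854 in the annotated SAMD9 transcripts and 7255 in those of SAMD9L. No other pair of the 7 genes shared any on the same strand. Matches with mismatches were not computed, so how many reads of 1 gene could match the other was not tested.

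**Figure D2:**
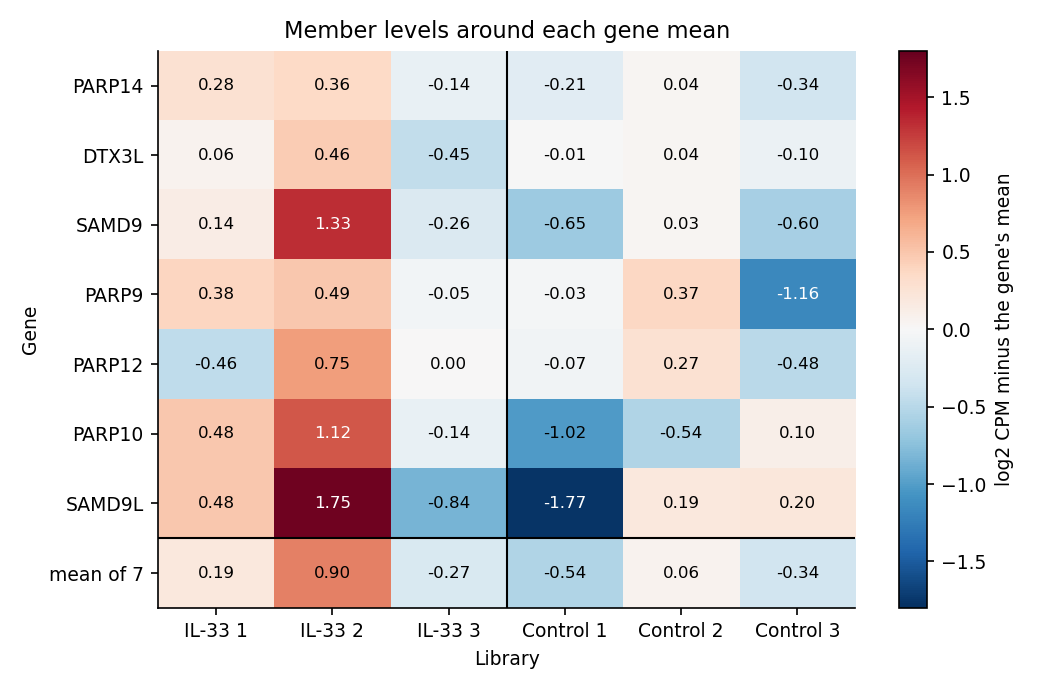
Level of each gene in each library as log2 CPM minus the mean of that gene over the 6 libraries (color scale, values printed), with the IL-33 libraries left of the line and the Control libraries right of it. The bottom row is the mean of the 7 genes, highest in IL-33 2 at 0.90 and lowest in Control 1 at -0.54, with IL-33 3 at -0.27. Genes have equal weight in it, and Control 1 holds SAMD9L at -1.77 (2 counts) and PARP10 at -1.02 (8 counts).

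Across the 7 genes, the IL-33 libraries spread widely around their group mean. The mean of the 7, in log2 CPM around the mean of each gene, was 0.19, 0.90 and -0.27 in IL-33 1, 2 and 3, against -0.54, 0.06 and -0.34 in Control 1, 2 and 3. Each gene had the same weight, so genes with few counts moved this mean and the group difference. In Control 1, SAMD9L stood at -1.77 on 2 counts and PARP10 at -1.02 on 8 counts. PARP9, PARP12, PARP14 and DTX3L were lower in Control 3 than in Control 1. A mean without PARP10 and SAMD9L was not computed. The difference of 0.55 between IL-33 and Control stands beside a spread of 1.16 from the lowest to the highest IL-33 library and of 0.60 among the Control libraries. A range over single libraries and a difference of group means are unlike measures, and they were not tested against each other. IL-33 3 lay within the Control range for 6 of the 7 genes, and below it for DTX3L. IL-33 1 exceeded all Control libraries for 6 of the 7. The margin was narrowest for DTX3L (42.4 CPM, against 42.0 CPM in Control 2) and PARP9 (15.1 CPM, against 15.0 CPM in Control 2). For each of these 6 genes, the exact Poisson intervals of IL-33 1 and of the highest Control library overlapped. The place of IL-33 1 above the Control libraries was therefore not clear of counting error in any of them. How often this order occurs among all genes was not computed. The lowest library was Control 1 for PARP10, SAMD9 and SAMD9L, Control 3 for PARP9, PARP12 and PARP14, and IL-33 3 for DTX3L. For all genes tested the median of the same centred level lay between 0.00 and 0.02 in every library. The part of sequencing depth, highest in IL-33 2, in this order was not tested.

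The 7 genes were ordered by their mean CPM over all 6 libraries. PARP14 was above DTX3L in 6 of 6 libraries, by 1.09 to 1.60 times in CPM, and DTX3L above SAMD9 in 6 of 6. SAMD9 and PARP9 could not be ordered, since SAMD9 was the higher in 2 of 6 libraries with a ratio from 0.711 to 1.97. PARP9 exceeded PARP12 in 6 of 6 libraries and PARP12 exceeded PARP10 in 6 of 6. PARP10 was above SAMD9L in 4 of 6, and these 2 genes were likewise not separated.

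**Figure D3:**
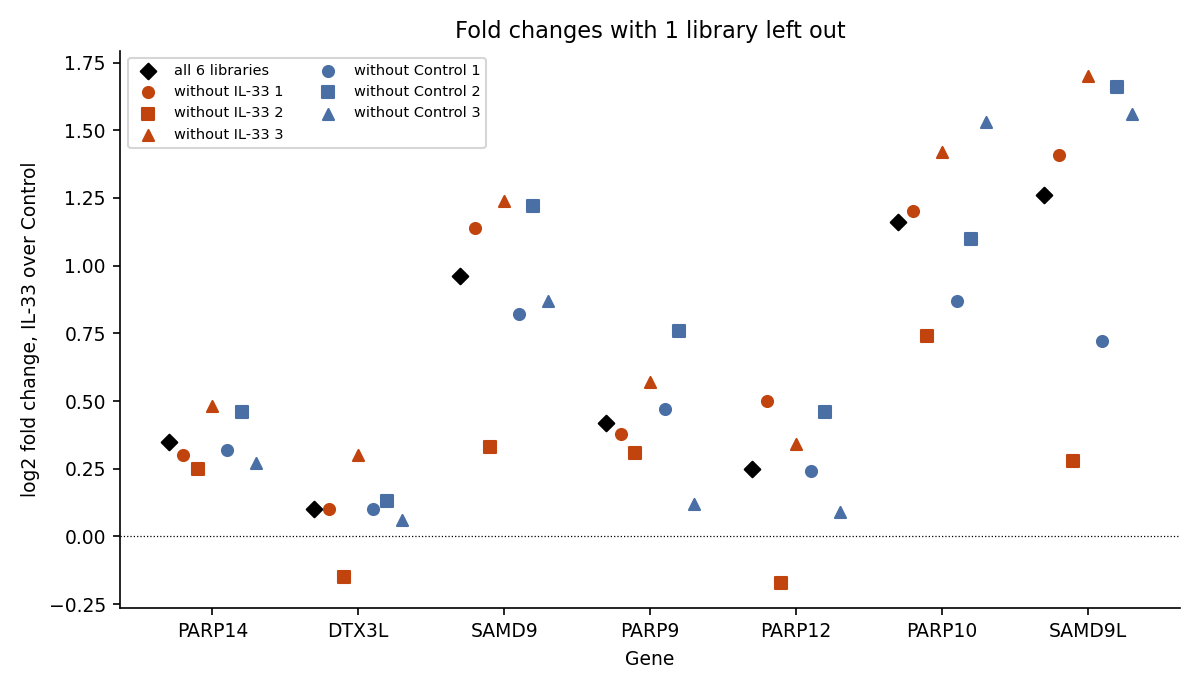
Log2 fold change of IL-33 over Control for each gene with all 6 libraries (black diamonds) and with 1 library left out (orange for an IL-33 library, blue for a Control library). Leaving out IL-33 2 gives -0.15 for DTX3L and -0.17 for PARP12 and moves SAMD9 to 0.33 and SAMD9L to 0.28.

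The 7 genes differed in how far they rested on IL-33 2. Without it, the log2 fold change was 0.25 for PARP14, 0.31 for PARP9, 0.33 for SAMD9, 0.28 for SAMD9L and 0.74 for PARP10, and it was below 0 for DTX3L and PARP12. The difference in the mean level of the 7 was 0.24 without that library, against 0.55 with it, and 0.82 without IL-33 3. With Control 3 and IL-33 2 both left out, an alternative added after the values were seen, PARP9 stood at 0.00, SAMD9 at 0.24 and the mean difference at 0.20.

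Other interferon-stimulated genes, a list of 46 that leaves out the 7, were also mostly above 0 in log2 fold change. Earlier results had already shown many of them in these libraries, so they are not independent evidence. Of 38 tested, 31 had a log2 fold change above 0 and the median was 0.27, 0 passed over all genes in either direction, and 27 (71.1%) were highest in IL-33 2. Their summed level was 1450, 1600 and 1090 CPM in IL-33 1, 2 and 3, against 1200, 1200 and 1180 CPM in Control 1, 2 and 3. The most abundant were IFITM3, which restricts virus entry, with a log2 fold change of 0.15 ± 0.12, IFI6 with 0.43 ± 0.28, the secreted glycoprotein gene LGALS3BP with 0.09 ± 0.11 and IFITM2 with -0.11 ± 0.12. IFI6 peaked in IL-33 1 (232 CPM, against 198 CPM in IL-33 2), unlike the 7 genes. The median of the list was 0.03 without IL-33 2.

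Upstream of these genes, the interferon ligands were hardly detected. Of 10 interferon ligand genes, 9 had 0 counts in all libraries, IFNB1 and IFNG included, and the sum over the list was 0 CPM in all 3 IL-33 libraries and at most 0.721 CPM in Control. A count of 0 does not exclude a low level. A set floor of 3 counts, which is no interval, stands at 0.293 CPM in the deepest library and 0.543 CPM in the shallowest. The 9 genes of the interferon receptors and the ISGF3 axis were all tested, 0 passed in either direction, 5 were above 0 and the median was 0.01. JAK1 had a log2 fold change of -0.07 ± 0.12, STAT2, a subunit of ISGF3, 0.10 ± 0.15, and the receptor chains IFNAR1 and IFNGR2 0.01 ± 0.15 and 0.12 ± 0.23. Of the 9 genes, 1 was highest in IL-33 2 (11.1%).

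Other PARP family genes lay around 0. Of 12 tested, 0 passed in either direction, 3 were above 0 with a median of -0.05, and 3 (25.0%) were highest in IL-33 2. PARP1, the main DNA damage PARP, averaged 218 CPM and differed by -0.02 ± 0.10 on the log2 scale, PARP2 -0.03 ± 0.14 and the tankyrase TNKS 0.14 ± 0.17. ZC3HAV1, the zinc finger antiviral protein, had 0.21 ± 0.16 and measured 57.9, 96.8 and 67.9 CPM in IL-33 1, 2 and 3, against 58.5, 70.2 and 63.5 CPM in Control. PARP15, which lies between DTX3L and PARP14, was at 0 counts in all libraries. The difference between these lists and the 7 genes was not tested.

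Genes that remove ADP-ribose and genes of NAD supply are the other side of the PARP reaction. Of 5 tested genes of removal, 0 passed in either direction, 2 were above 0 and the median was 0.00. ADPRHL2, the serine ADP-ribosylhydrolase also named ADPRS, measured 57.3 ± 4.61 CPM with IL-33 and 70.6 ± 8.44 CPM in Control, with all IL-33 libraries below all Control libraries, as in 3.51% of all genes, and a log2 fold change of -0.30 ± 0.14. The macrodomain hydrolases MACROD2 and OARD1 had 0.01 ± 0.23 and 0.08 ± 0.25, and PARG, which degrades poly(ADP-ribose), -0.01 ± 0.26. Of 7 tested genes of NAD supply, 0 passed in either direction, 3 were above 0 and the median was -0.05. NNMT, which consumes nicotinamide, had -0.08 ± 0.11, NAMPT, the rate-limiting enzyme of NAD salvage, 0.13 ± 0.21, QPRT 0.08 ± 0.16 and NADSYN1 0.10 ± 0.22. Of the other Deltex ligases, 2 of 4 could be tested and 0 passed, DTX2 with 0.12 ± 0.19 and DTX3 with 0.20 ± 0.20.

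**Figure D4:**
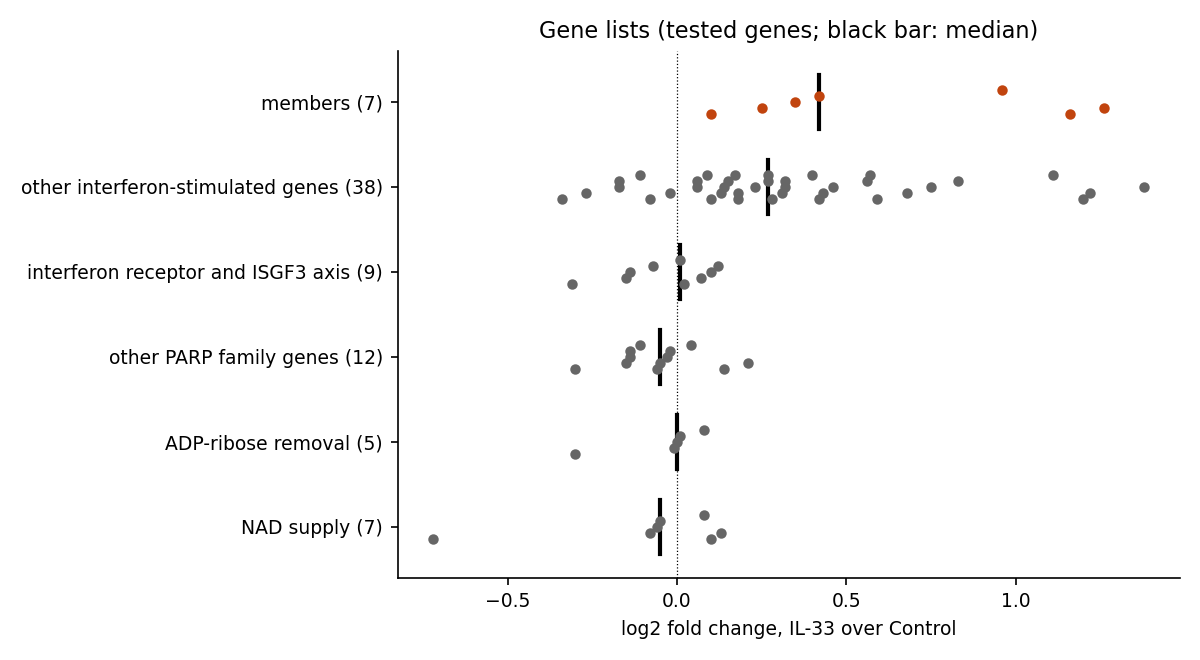
Log2 fold change of IL-33 over Control (x axis) for each tested gene of 6 lists, with the number tested in parentheses, the 7 genes in orange at the top and a black bar at the median of each list. The medians are 0.42 for the 7 genes and 0.27 for other interferon-stimulated genes, and lie between -0.05 and 0.01 for the 4 lists below.

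Neighbours on the chromosome were set beside the 2 clusters. Next to PARP9, DTX3L and PARP14 on chromosome 3, the nearest tested genes were KPNA1 with a log2 fold change of -0.05 ± 0.12 and WDR5B with -0.25 ± 0.35 on the PARP9 side, and HSPBAP1 with -0.10 ± 0.54 and DIRC2 with 0.14 ± 0.33 on the PARP14 side. DIRC2 was highest in IL-33 2 (17.1 CPM) but lowest in IL-33 1 (5.75 CPM), where PARP9, DTX3L and PARP14 each took their second highest value. Of the nearest tested genes around SAMD9 and SAMD9L on chromosome 7, CDK6 had -0.01 ± 0.11. It measured 299, 309 and 350 CPM in IL-33 1, 2 and 3, and 346, 340 and 277 CPM in Control. These genes were not all close by. CDK6 ends at 92836594 and SAMD9 starts at 93099513, while SAMD9L ends at 93148369 and TFPI2 starts at 93885396. FAM133B had 0.03 ± 0.15, VPS50 0.28 ± 0.28 and TFPI2 -0.35 ± 0.39. Among these 8 flanking genes, 1 peaked in IL-33 2. On chromosome 3 the flanking values ran from -0.25 for WDR5B to 0.14 for DIRC2. DTX3L, at 0.10, lay within that range, and PARP14 at 0.35 and PARP9 at 0.42 lay above it, a difference that was not tested. On chromosome 7 SAMD9 and SAMD9L lay above their flanking values, which ran from -0.35 for TFPI2 to 0.28 for VPS50, but stood at 0.33 and 0.28 without IL-33 2.

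**Figure D5:**
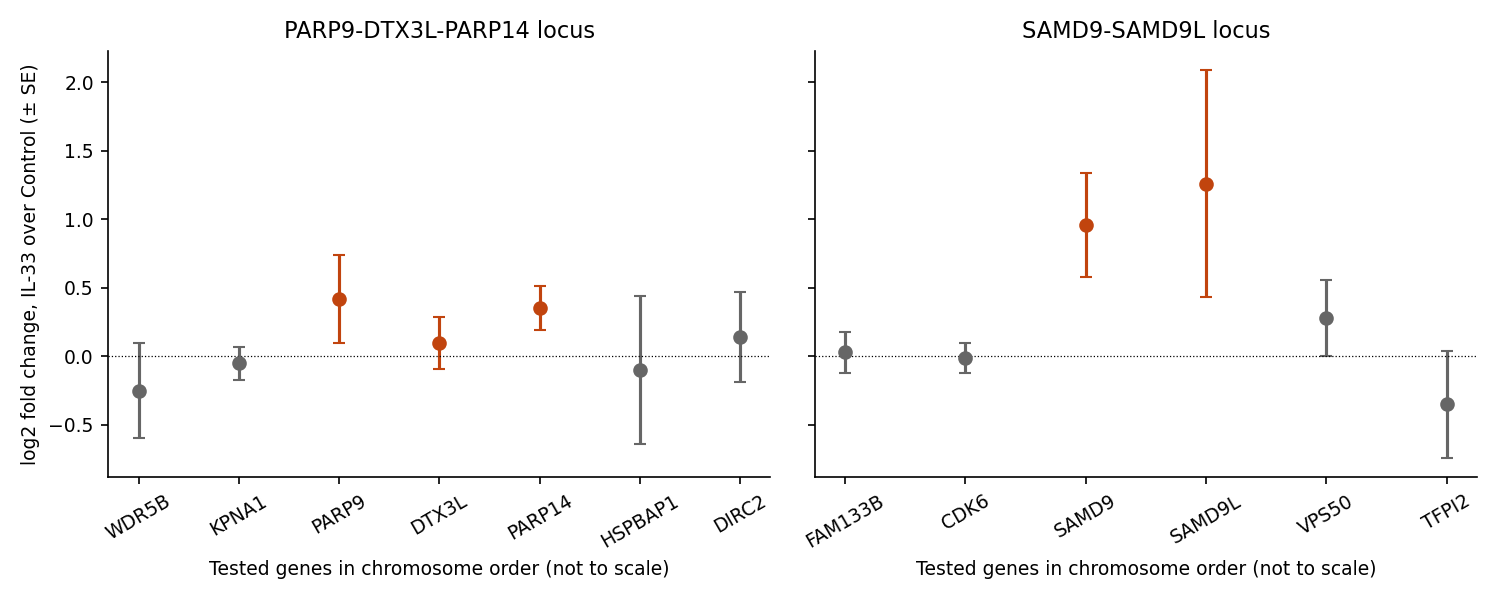
Log2 fold change of IL-33 over Control (± SE) for tested genes in chromosome order at the 2 clusters, with the clustered genes in orange and the 2 nearest tested genes on each side in gray. On chromosome 3 the flanking values lie between -0.25 for WDR5B and 0.14 for DIRC2, a range that holds DTX3L at 0.10 and lies below PARP14 at 0.35 and PARP9 at 0.42. On chromosome 7 they lie between -0.35 for TFPI2 and 0.28 for VPS50, below SAMD9 at 0.96 and SAMD9L at 1.26.

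The genes most like the 7 were found by the root-mean-square distance, over the 6 libraries, between the centred log2 CPM of a gene and the mean of the 7. PARP10 and SAMD9L, with few counts, had the same weight in that mean as the better measured genes. Among 8327 other genes of at least 10 CPM the median distance was 0.499. The closest were DDX58, which encodes the RNA sensor RIG-I, at 0.131, SPEF2 at 0.133, DTWD1 at 0.179, the noncoding RNA LINC00324 at 0.217 and OAS3, an oligoadenylate synthetase, at 0.231. DDX58 measured 16.6, 25.1 and 13.3 CPM in IL-33 1, 2 and 3, against 8.84, 15.5 and 13.2 CPM in Control 1, 2 and 3. DDX58 and OAS3 stand on the list of other interferon-stimulated genes and the other 3 do not. Of the 7 genes, each set against the mean of the other 6, SAMD9 was the closest at 0.248 and SAMD9L, with the fewest counts, the farthest at 0.819. Between them lay PARP14 at 0.308, DTX3L at 0.36, PARP12 at 0.426, PARP10 at 0.458 and PARP9 at 0.535. PARP9 was thus above the median of 0.499, although that median was taken to the mean of all 7.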

How the data were processed

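Raw counts by gene symbol were deposited by the authors as a single table, whose 6 columns each matched the title of 1 library. TRIZOL extraction and the QuantSeq 3′ FWD kit of Lexogen were used, per the labels' protocols. The submitters' processing notes name STAR 2.7.5a, HTSeq 0.6.1, edgeR and hg38 without saying what each did. Which annotation and strand setting were used is not stated.

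Of 27470 rows, 1 held no values and was left out. Genes were filtered with filterByExpr (count minimum 10, total minimum 15), scaled by TMM and tested with edgeR 4.0.16 (R 4.3.3), group as sole term, Benjamini-Hochberg at 0.05. The 12125 genes tested held 99.9% of the counts. Log2 CPM used a prior count of 2. Positions came from GENCODE 29 (GRCh38), promoters from RefSeq (GRCh38.p14). DESeq2 1.42.0, limma 3.58.1, other scalings and filters, the replicate block and each library left out were alternatives. The test was run on simulated counts first.

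The 7 genes, the lists and the tests were chosen with earlier results of these data known. From each list other than markers, up to 4 tested genes of highest mean CPM were named, with 2 flanking genes per side and the 5 nearest profiles. Others (FN1, VIM, TAGLN, KRT18, KIRREL3-AS2, GRINA) were named after their values were seen, and marker genes at 0 as such. In the microglia marker list and the receptor list, 1 gene each is not reported here and was left out of the list's counts and sums. No 2 libraries of a group held equal counts (chi-square per degree of freedom 5.56 to 15.9). Protein sequences of SAMD9 and SAMD9L were not analysed here.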

Additional observations from a re-analysis of the deposited data

How the results depend on the processing

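edgeR's 0 called genes became 3 without the low-count filter (3 higher), 1 by DESeq2 (1 higher), and 0 to 6 with a library left out (0 to 3 higher, 0 to 3 lower), the 6 without Control 3. None of these was among the 7 genes, which were called under no alternative run. The 295 genes at an unadjusted p under 0.05 became 495 without the filter, 164 at a 10 CPM filter, 244 to 794 with a library left out and 714 without both Control 3 and IL-33 2. DTX3L turned to -0.15 without IL-33 2 and -0.19 without both libraries, and PARP12 to -0.17 and -0.33. With any 1 library left out, DTX3L ran from -0.15 to 0.30 and PARP12 from -0.17 to 0.50. Of 95 fold changes of the 7 genes under alternatives, these 4 reversed and 1 was counted as moved, SAMD9 from 0.96 to 0.24 without both libraries. The log2 SD of SAMD9 between replicates was 0.83 with IL-33, with IL-33 2 included, and 0.38 in Control. An SD over single libraries and a change in a fold change are unlike measures, and they were not tested against each other. The other 90 were counted as neither, among them PARP9 at 0.00 without both libraries and SAMD9L at 0.28, against 1.26, without IL-33 2. The median of the 7 ran from 0.27 to 0.76 and the mean difference from 0.24 to 0.82 with a library left out. PARP10, PARP12 and SAMD9L gave no value at 10 CPM. Causes of these changes were not tested. With the replicate number as a block, 0 genes were called (0 higher, 0 lower), 213 were at an unadjusted p under 0.05, and the median of the 7 was 0.52. Same-numbered libraries deviated with correlations of -0.086, 0.027 and -0.136, so the numbers do not show pairs. Depth limits PARP10 and SAMD9L most, with 112 and 92 counts in all.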
